A study of Mus musculus with 6 samples.

Results

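Solute carriers (SLC) are the largest family of membrane transporters, and their genes carry the prefix Slc with a family number. The genes described here were the rows of the deposited table with such a symbol and a mean of at least 1 CPM (counts per 1000000 reads) over the 6 libraries. Slc4a1, Slc2a1, Slc2a3, Slc16a1, Slc16a3 and Slc25a20 were left out by name. Of 24062 rows, 374 had a solute carrier symbol. Of these, 154 lay under 1 CPM, 72 of them with no read in any library, 6 were left out by name and 214 were kept. The genes were thus chosen by their mean CPM over both groups, which is a description and no finding. Just inside the 1 CPM limit were Slc10a1 (mean 1.05 CPM), Slc16a5 (1.08 CPM) and Slc6a17 (1.11 CPM), and just outside it were Slc18a1 (0.938 CPM), Slc7a14 (0.688 CPM) and Slc24a3 (0.679 CPM).

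RNA came from sorted mouse hematopoietic stem cells (HSC), from which all blood cells descend. Animals of both groups were Nr4a1 fl/fl and Nr4a3-/-, so the controls too lacked Nr4a3, and the CDKO animals carried in addition the Rosa26-ERt2 construct, by background a tamoxifen-activated Cre recombinase. Every animal received tamoxifen at 120 mg per kg on each of 4 days, and the sort followed on day 5. Each of the 3 control and 3 CDKO libraries came from a pool of 3 to 5 mice. The question was what the loss of Nr4a1, a nuclear receptor, changes in HSC that already lack its relative Nr4a3. Cre and the excised Nr4a1 allele were present in the same libraries and cannot be told apart. Sex, age and strain of the mice and the surface markers of the sort are not given in the sources used here.

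A solute carrier moves a solute down its own gradient or couples its movement to that of an ion or of another solute. Family members differ in the membrane they sit in: the plasma membrane for uptake of amino acids, glucose, ions and vitamins, the mitochondrial inner membrane for the family 25 carriers, and the Golgi, lysosome or secretory vesicle for others. Many amino acid transporters need a partner chain to reach the surface, and many genes have close relatives that carry similar substrates in opposite directions or in other tissues. In blood formation, solute carriers are known above all from red cell precursors, which import iron into mitochondria and make heme, and from stem cells, whose uptake of amino acids and glucose feeds growth.

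The libraries held 32863805 to 42772261 counted reads, so that a count of 0 allows a level of at most 0.0701 to 0.0913 CPM by library (3 counts, counting error only). Nr4a1 was at 15.2, 13.4 and 12.9 CPM in control pools and 8.52, 9.76 and 9.12 CPM in CDKO pools. For Nr4a1 the log2 difference was -0.55 (SE 0.12, limma adjusted p = 0.00204). Nr4a3 had 0 reads in all libraries. Gene-level counts do not separate excised from kept exons, so this checks the label in part. The 12 HSC markers were present in every library, of which 5 rose, 6 fell and 1 did not pass, with a summed level of 5325 to 5575 CPM in control and 4910 to 5113 CPM in CDKO pools. Markers of other cells differed between the groups: all 8 neutrophil markers fell (summed 750.4 to 992 CPM in control and 14.8 to 78.6 CPM in CDKO pools), as did all 7 basophil, mast cell and eosinophil markers (395 to 445 and 13.8 to 17.6 CPM) and 5 of 6 tested erythroid markers (178 to 198 and 46.5 to 51.1 CPM). Of the erythroid list, the globin genes Hbb-bt and Hba-a1 were at 0 in every library. In megakaryocyte markers 4 of 5 rose (279 to 310 and 391 to 401 CPM), in macrophage markers 4 of 6 rose and 2 fell (29.6 to 32.9 and 48.1 to 50.7 CPM), and in the lymphoid list 1 of 4 tested rose and 1 fell. In such bulk libraries, fewer cells of a type and less RNA per cell cannot be told apart. The part of these cells in the changes of the solute carriers was not tested.

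Of the 214 genes, 71 rose and 83 fell in CDKO HSC and 60 did not pass the test (limma on log2(CPM + 1), Benjamini-Hochberg adjusted p threshold 0.05, two-sided, over 13734 genes tested). The share called was 72.0% among the solute carriers and 66.2% among all genes tested, so that the count as such is near the background. In each direction, 33.2% rose against 31.1% of all genes tested, and 38.8% fell against 35.2%. The pools of the 2 groups did not overlap for 157 genes, with all CDKO pools above all control pools for 70 and below for 87, a share of 73.4% against 70.6% of all genes tested. The median log2 difference of the solute carriers was -0.05 (quartiles -0.58 and 0.34) and that of all genes tested was -0.02 (quartiles -0.39 and 0.29). Their summed level was 11923 to 12284 CPM in control and 12346 to 12423 CPM in CDKO pools, higher in all CDKO pools.

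Larger changes were mostly decreases. At least 2-fold in mean CPM, 7 genes rose (3.27%) and 33 fell (15.4%), where the background among genes with a mean of at least 1 CPM was 6.18% and 9.43%. Of the 214 genes, 5 had a mean under 1 CPM in control pools only and 19 had one under 1 CPM in CDKO pools only. Such genes had to differ to be among the 214, and 5 of the 5 rose and 18 of the 19 fell. Among the 190 genes with a mean of at least 1 CPM in both groups, 66 rose and 65 fell. The share called was 68.9% against 64.7% of genes at that level, with 34.7% against 31.2% higher and 34.2% against 33.5% lower. Of these 190, 2 rose and 15 fell at least 2-fold (1.05% and 7.89%), against 4.12% and 6.11% of genes at that level. With a minimum of 1.5-fold, 22 of all 214 genes rose and 55 fell. Of 12590 genes with a mean of at least 1 CPM, 1518 rose (12.1%) and 2164 fell (17.2%) by that minimum. These counts include genes under 1 CPM in 1 of the groups, and at 1.5-fold no count was made without them.

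**Figure D1:**
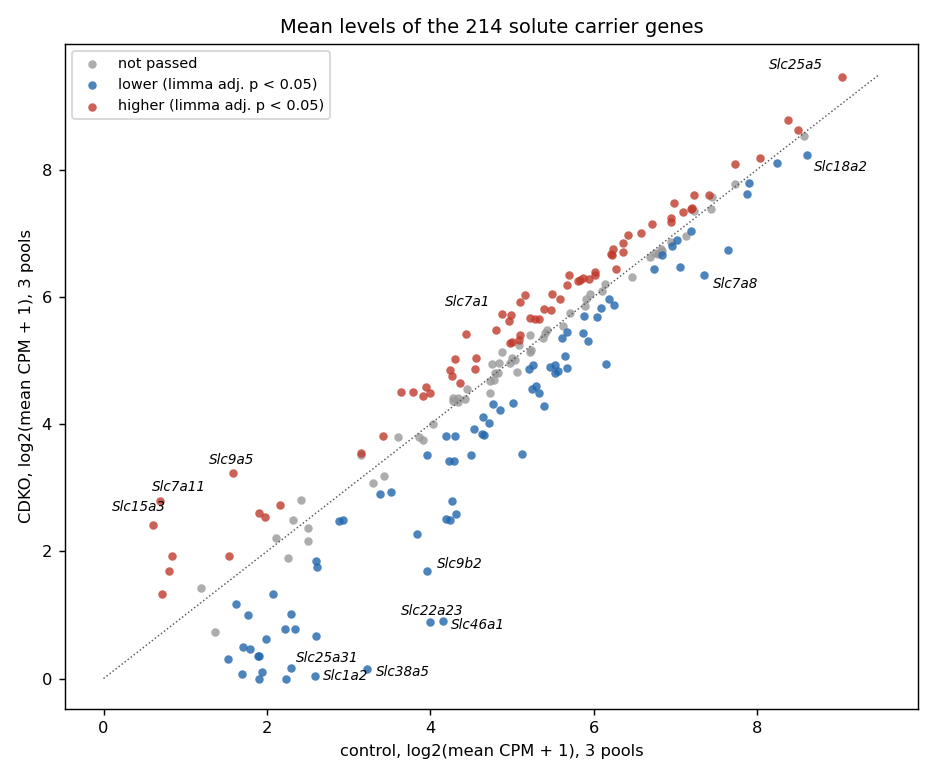
Mean level of each of the 214 solute carrier genes in control pools (x axis) and CDKO pools (y axis), both as log2(mean CPM + 1) over 3 pools, coloured by the limma call (71 higher, 83 lower, 60 not passed). Most genes lie close to the diagonal, and the genes farthest from it lie below it at low levels.

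The mitochondrial carriers held the highest levels. Per kilobase of exon, Slc25a5, the adenine nucleotide translocase 2 that exchanges ADP for ATP, led with 319.6 in control and 426 in CDKO pools (CPM per kilobase), and held 12.1% of the summed CPM per kilobase of all 214 genes. On the same scale its relative Slc25a4, translocase 1, was at 111 in control and 123 in CDKO pools. Slc50a1, a sugar transporter of the SWEET family, was at 117 in control and 113 in CDKO pools, and Slc25a11, the oxoglutarate carrier, at 110.1 in control and 91.9 in CDKO pools. Slc48a1, which moves heme out of endosomes and lysosomes, was at 86.7 in control and 80.3 in CDKO pools. Next were Slc25a1, the citrate carrier, at 58.1 in control and 81.5 in CDKO pools, and Slc25a3, the phosphate carrier, at 59.9 in control and 79.4 in CDKO pools. The highest vesicular transporter was Slc18a2, which loads monoamines into vesicles, at 74.8 in control and 57.2 in CDKO pools.

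**Figure D2:**
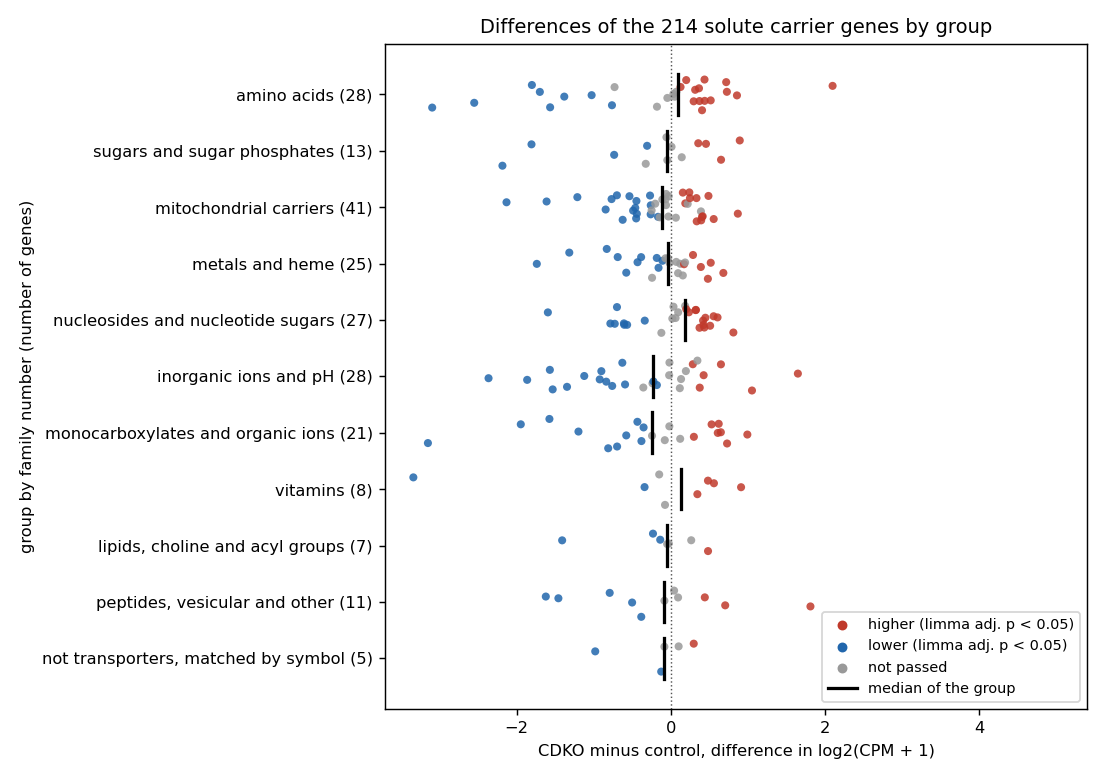
Difference between CDKO and control pools in log2(CPM + 1) for each solute carrier gene (points), arranged by substrate group with the number of genes in brackets, with the group's median as a black bar. Every group with at least 7 genes held both called increases and called decreases. Medians ran from -0.24 for monocarboxylates and organic ions to 0.19 for nucleosides and nucleotide sugars.

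Of 28 amino acid transporters, 14 rose (50%), 8 fell (28.6%) and 6 did not pass, against 31.1% and 35.2% of all genes tested, with a median log2 difference of 0.10. Of the 8 that fell, 2 had a CDKO mean under 1 CPM, and of the 14 that rose, 1 had a control mean under 1 CPM. Among the 24 of at least 1 CPM in both groups, 13 rose (54.2%) and 6 fell (25%), against 31.2% and 33.5% of such genes. The summed level of all 28 was 2243 to 2322 CPM in control and 2398 to 2429 CPM in CDKO pools. Slc7a11, the light chain of the cystine and glutamate exchanger that feeds glutathione synthesis (mm10 chromosome 3, 49892526 to 50443614), was at 0.588, 0.9598 and 0.307 CPM in control pools and 5.54, 4.702 and 7.53 CPM in CDKO pools. Slc7a11 was low in all control pools and rose 9.58-fold (log2 difference 2.10, SE 0.20, limma adjusted p = 4.81e-06), the largest increase among the 214 genes on the log2 scale. Slc7a1, the cationic amino acid transporter for arginine and lysine, was at 25.3, 31.5 and 28.2 CPM in control pools and 55.7, 52.3 and 48.1 CPM in CDKO pools. Slc7a1 rose 1.84-fold with no overlap (log2 difference 0.86, SE 0.09, limma adjusted p = 1.21e-05). Slc38a7, a lysosomal glutamine transporter, rose from 18.7 ± 1.35 to 31.6 ± 3.25 CPM (limma adjusted p = 8.99e-05). Slc6a13, a transporter of GABA and taurine, rose from 12.9 ± 1.65 to 21.7 ± 1.82 CPM (limma adjusted p = 0.0003196), each with SD over n = 3 pools as in what follows.

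The leucine importer Slc7a5 and the glutamine importers Slc38a1, Slc38a2 and Slc1a5 differed by less than 1.5-fold. Slc7a8, another leucine carrier, fell 2.04-fold, and the glutamine and glycine transporter Slc38a5, described below, fell 80.3-fold. Slc7a5, the light chain that imports leucine, was at 122, 128 and 115 CPM in control pools and 155, 146 and 148 CPM in CDKO pools, all CDKO pools being higher (log2 difference 0.30, SE 0.05, limma adjusted p = 0.0004096). Its heavy chain Slc3a2 was at 140.1, 134 and 142 CPM in control pools and 106, 131 and 132 CPM in CDKO pools without passing (limma adjusted p = 0.0553). It passed as lower without CDKO replicate 2 (adjusted p = 0.0377 by limma), without CDKO replicate 3 (adjusted p = 0.0242 by limma) and with a minimum mean of 50 reads (adjusted p = 0.0462 by limma). Slc38a1, a glutamine importer of the plasma membrane, rose from 211 ± 10.2 to 272 ± 13.05 CPM (limma adjusted p = 7.15e-05), whereas its relative Slc38a2 did not pass (control 379 ± 16.8, CDKO 367 ± 16.5 CPM, log2 difference -0.05, limma adjusted p = 0.413). Slc1a5, the neutral amino acid exchanger that brings in glutamine, did not pass either (control 211 ± 12.5, CDKO 219 ± 9.51 CPM, log2 difference 0.05, limma adjusted p = 0.417), nor did Slc43a1 (control 69.4 ± 0.904, CDKO 72.96 ± 3.07 CPM, log2 difference 0.07, limma adjusted p = 0.286) or Slc38a9, the lysosomal arginine sensor (control 41.2 ± 2.64, CDKO 42.3 ± 5.20 CPM, log2 difference 0.03, limma adjusted p = 0.772). Slc1a5 passed as higher after GC and length correction (adjusted p = 0.0311 by limma), and so did Slc43a1 after GC and length correction (adjusted p = 0.01096 by limma). Slc6a6, the taurine transporter, rose from 146 ± 2.56 to 168 ± 10.96 CPM (limma adjusted p = 0.00615). Slc38a10 had the highest level per kilobase of the group and rose from 362 ± 13.99 to 395 ± 7.85 CPM (limma adjusted p = 0.0205), and that call was lost without control replicate 3 (adjusted p = 0.09299 by limma), without CDKO replicate 3 (adjusted p = 0.0624 by limma) and with quantile normalization (adjusted p = 0.103 by limma).

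The decreases were larger and lay mostly in genes of lower level. Slc38a5, a glutamine and glycine transporter of red cell precursors (mm10 chromosome X, 8271133 to 8280179), was at 8.67, 7.95 and 8.501 CPM in control pools and 0, 0.289 and 0.0234 CPM in CDKO pools. Slc38a5 fell 80.3-fold (log2 difference -3.09, SE 0.16, limma adjusted p = 1.14e-07), and among CDKO pools replicate 2 was the highest. Without CDKO replicate 1 the fold was 53.6, and without CDKO replicate 2 the CDKO mean was under 3 counts, so that no fold is given. Slc1a2, the glial glutamate transporter, was at 5.86, 4.28 and 4.94 CPM in control pools and 0, 0 and 0.0701 CPM in CDKO pools. For Slc1a2 the log2 difference was -2.55 (SE 0.16, limma adjusted p = 3.14e-07), with CDKO pools at or near 0. Slc7a7, a light chain that exports cationic amino acids, was at 18.2, 16.9 and 18.6 CPM in control pools and 2.62, 5.83 and 5.45 CPM in CDKO pools. Slc7a7 fell 3.87-fold with no overlap (log2 difference -1.80, SE 0.21, limma adjusted p = 2.12e-05). Slc36a1, which carries amino acids with protons out of lysosomes, was at 18.4, 15.7 and 17.9 CPM in control pools and 4.02, 5.38 and 4.58 CPM in CDKO pools. For Slc36a1 the log2 difference was -1.70 (SE 0.14, limma adjusted p = 1.70e-06). Both tested members of family 36 fell. The erythroid, neutrophil and basophil markers were lower in the same libraries, at the summed levels given above, and their part in these decreases was not tested.

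Sequence upstream of the start site is shown for Slc7a11 and Slc7a7, which moved in opposite directions within family 7. Both windows are 250 bases before an annotated start in RefSeq (GRCm38.p6, both on the minus strand, printed 5′ to 3′ of the gene). Capitals mark matches to TGATGNAA, the letters of the C/EBP-ATF element known from amino acid response genes, searched on both strands.
Slc7a11, chr3:50443614-50443863: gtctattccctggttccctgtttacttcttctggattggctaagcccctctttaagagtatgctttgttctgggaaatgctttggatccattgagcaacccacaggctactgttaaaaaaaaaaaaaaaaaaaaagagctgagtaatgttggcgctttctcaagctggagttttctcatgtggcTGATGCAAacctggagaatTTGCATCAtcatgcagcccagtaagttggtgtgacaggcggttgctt
Slc7a7, chr14:54417945-54418194: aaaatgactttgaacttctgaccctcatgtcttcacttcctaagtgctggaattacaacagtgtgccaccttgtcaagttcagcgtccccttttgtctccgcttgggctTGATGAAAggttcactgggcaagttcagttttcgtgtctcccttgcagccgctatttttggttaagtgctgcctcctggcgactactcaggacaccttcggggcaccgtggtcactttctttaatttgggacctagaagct
The Slc7a11 window held 2 matches, 66 and 47 bases upstream of the start, and this Slc7a7 window, 1 of 5 of the gene, held a match 141 bases upstream. Another window of Slc7a7, not shown, held a match 243 bases upstream. Of the 162 solute carrier genes with a window, 4 held a match (2.47%): Slc7a11, which rose, Slc7a7 and Slc9a9, which fell, and Slc50a1, which did not pass. Among 27025 genes with a window the share was 3.91%. A match of letters is a description and not a binding site. The call of Slc9a9 was lost without control replicate 2 (adjusted p = 0.0552 by limma).

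Of 41 mitochondrial carriers, the largest group, 12 rose (29.3%), 17 fell (41.5%) and 12 did not pass, near the 31.1% and 35.2% of all genes tested, with a median log2 difference of -0.11. Of the 17, 1 had a CDKO mean under 1 CPM. Among the 40 of at least 1 CPM in both groups, 12 rose (30%) and 16 fell (40%), against 31.2% and 33.5% of such genes. The summed level of all 41 was nevertheless higher, 3116 to 3165 CPM in control and 3382 to 3424 CPM in CDKO pools, with increases among the genes of highest level. Slc25a5 (mm10 chromosome X, 36795651 to 36798807) was at 539, 513 and 527 CPM in control pools and 710.2, 676 and 715 CPM in CDKO pools. For Slc25a5 the log2 difference was 0.41 (SE 0.04, limma adjusted p = 6.03e-06). The CDKO pools of Slc25a5 all lay above the control pools. Slc25a3, which brings phosphate in for ATP synthesis, was at 350.0, 329 and 318 CPM in control pools and 473, 432 and 417 CPM in CDKO pools. For Slc25a3 the log2 difference was 0.40 (SE 0.05, limma adjusted p = 5.34e-05). Slc25a1, which exports citrate for lipid synthesis, was at 122, 128 and 127 CPM in control pools and 174, 176 and 179 CPM in CDKO pools. For Slc25a1 the log2 difference was 0.49 (SE 0.04, limma adjusted p = 3.52e-06). In Slc25a3 and Slc25a1, too, the groups did not overlap. Slc25a4 rose from 260.4 ± 11.2 to 290.0 ± 13.97 CPM (limma adjusted p = 0.0155), and that call was lost without control replicate 1 (adjusted p = 0.0687 by limma) and without CDKO replicate 3 (adjusted p = 0.06105 by limma).

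Slc25a15, the ornithine carrier of the urea cycle, was at 30.7, 35.8 and 37.8 CPM in control pools and 71.8, 58.1 and 62.98 CPM in CDKO pools, with the largest increase of the group, 1.85-fold (log2 difference 0.87, SE 0.10, limma adjusted p = 1.37e-05). Slc25a44, a carrier of branched-chain amino acids, rose from 44.1 ± 4.44 to 65.3 ± 6.45 CPM (limma adjusted p = 0.000221). Against these, Slc25a31, the adenine nucleotide translocase known from testis, was at 4.24, 4.06 and 3.47 CPM in control pools and 0.0609, 0.121 and 0.187 CPM in CDKO pools and fell with no overlap (log2 difference -2.13, SE 0.15, limma adjusted p = 6.57e-07). Slc25a27, an uncoupling protein relative known from brain, was at 32.4, 36.4 and 32.96 CPM in control pools and 7.85, 12.2 and 11.7 CPM in CDKO pools. For Slc25a27 the log2 difference was -1.61 (SE 0.15, limma adjusted p = 3.72e-06). Slc25a53, a carrier with no substrate named here, fell from 18.5 ± 3.13 to 9.75 ± 0.557 CPM (limma adjusted p = 0.000226). Among the translocases themselves, Slc25a5 was thus higher and Slc25a31 lower. Slc25a17, a carrier of the peroxisome (control 113 ± 3.72, CDKO 105 ± 6.21 CPM, log2 difference -0.11, limma adjusted p = 0.1001), and Slc25a24, an ATP and magnesium carrier (control 107 ± 6.49, CDKO 102 ± 7.67 CPM, log2 difference -0.07, limma adjusted p = 0.373), were the most abundant carriers that did not pass.

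Of 4 mitochondrial carriers known from iron and heme metabolism, 3 fell and 1 rose. Slc25a37, mitoferrin 1, which imports iron for heme in red cell precursors, was at 75.7, 68.97 and 65.6 CPM in control pools and 28.1, 32.7 and 28.3 CPM in CDKO pools. It fell 2.36-fold, and the highest CDKO pool was below the lowest control pool (log2 difference -1.21, SE 0.08, limma adjusted p = 5.73e-07). Slc25a28, mitoferrin 2 of other tissues, fell from 66.9 ± 2.69 to 55.6 ± 2.64 CPM (limma adjusted p = 0.00335). Slc25a38, a glycine importer for heme synthesis, fell from 26.3 ± 3.38 to 18.9 ± 0.282 CPM (limma adjusted p = 0.00335). Slc25a39, which carries glutathione into mitochondria, rose from 169 ± 3.26 to 193 ± 9.24 CPM (limma adjusted p = 0.00449). Erythroid markers moved with Slc25a37 and Slc25a38: 5 of 6 tested fell, the summed level was 178 to 198 CPM in control and 46.5 to 51.1 CPM in CDKO pools, and Hbb-bt and Hba-a1 were at 0. Their part in this result was not tested.

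Metal and heme transporters counted 6 of 25 higher (24%), 10 lower (40%) and 9 that did not pass (median log2 difference -0.03), against 31.1% and 35.2% of all genes tested, but 8 higher and 7 lower after GC and length correction. Of the 10, 1 had a CDKO mean under 1 CPM. Among the 24 of at least 1 CPM in both groups, 6 rose (25%) and 9 fell (37.5%), against 31.2% and 33.5% of such genes. Within the group, the zinc families 39 and 30 differed in their counts. Of the 11 genes of family 39 (ZIP), which bring zinc and other metals into the cytosol, none rose and 5 fell (45.5%), though 1 rose with TMM scaling and 2 rose and 4 fell after GC and length correction. Those that fell were Slc39a4, Slc39a14, Slc39a13, Slc39a6 and Slc39a11. Many but not all of the 7 genes of family 30 (ZnT) move zinc out of the cytosol. Of these 7 genes, 4 rose (57.1%) and 2 fell (28.6%), against 31.1% and 35.2% of all genes tested. Those that rose were Slc30a1, Slc30a6, Slc30a7 and Slc30a9, and those that fell were Slc30a2 and Slc30a5. Slc30a2 had a CDKO mean under 1 CPM. Among the 6 genes of family 30 at 1 CPM or more in both groups, 4 rose (66.7%) and 1 fell (16.7%). The shares of all such genes were 31.2% and 33.5%, and all 11 genes of family 39 were at that level. Called in every alternative were 4 genes of family 39 and 1 of family 30, Slc30a9. Whether the families differ was not tested. Slc39a13, Slc39a6, Slc39a11, Slc30a5 and Slc30a7 were named after their values were seen. The call of Slc39a11 was lost without control replicate 2 (adjusted p = 0.0854 by limma), without control replicate 3 (adjusted p = 0.0509 by limma), without CDKO replicate 1 (adjusted p = 0.06797 by limma) and after GC and length correction (adjusted p = 0.159 by limma). That of Slc30a5 was lost without control replicate 2 (adjusted p = 0.0678 by limma), without CDKO replicate 3 (adjusted p = 0.0517 by limma) and after GC and length correction (adjusted p = 0.0611 by limma). That of Slc30a7 was lost without control replicate 1 (adjusted p = 0.0982 by limma), without control replicate 2 (adjusted p = 0.0730 by limma) and without CDKO replicate 3 (adjusted p = 0.102 by limma).

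Slc39a4, the zinc importer of the gut, was at 20.2, 16.9 and 19.9 CPM in control pools and 4.199, 5.26 and 5.54 CPM in CDKO pools, a 3.796-fold decrease with no overlap (log2 difference -1.74, SE 0.14, limma adjusted p = 1.48e-06). Slc39a14, which also carries iron and manganese, was at 51.4, 49.1 and 46.7 CPM in control pools and 30.2, 32.3 and 35.2 CPM in CDKO pools. For Slc39a14 the log2 difference was -0.58 (SE 0.08, limma adjusted p = 6.75e-05), again lower in all CDKO pools. Slc39a7, which releases zinc from the endoplasmic reticulum, did not pass (control 149 ± 8.27, CDKO 162 ± 3.78 CPM, log2 difference 0.12, limma adjusted p = 0.0514). It passed as higher without control replicate 3 (adjusted p = 0.0186 by limma) and with TMM scaling, with a pseudocount of 5, by edgeR, by DESeq2 and after GC and length correction (adjusted p = 0.00283 to 0.0493). Slc39a8 (control 20.4 ± 1.56, CDKO 20.1 ± 1.58 CPM, log2 difference -0.02, limma adjusted p = 0.887) and Slc39a9 (control 112 ± 4.14, CDKO 107 ± 11.3 CPM, log2 difference -0.07, limma adjusted p = 0.408) did not pass either. In family 30, Slc30a9 was at 80.7, 83.97 and 79.6 CPM in control pools and 120.0, 110.0 and 112 CPM in CDKO pools and rose (log2 difference 0.48, SE 0.05, limma adjusted p = 1.52e-05). Slc30a1, the zinc exporter of the plasma membrane and a textbook target of the metal sensor Mtf1, rose from 9.74 ± 1.19 to 13.1 ± 2.302 CPM (limma adjusted p = 0.0371), with overlapping pools. That call was lost at limma adjusted p = 0.0762 to 0.145 without control replicate 1, control replicate 3, CDKO replicate 1 and CDKO replicate 3 in turn and with no filter (adjusted p = 0.0809 by limma). Slc30a6, a Golgi transporter, rose from 19.6 ± 1.66 to 24.1 ± 0.915 CPM (limma adjusted p = 0.02296), a call lost without control replicate 1 (adjusted p = 0.0765 by limma), without control replicate 2 (adjusted p = 0.0634 by limma) and without CDKO replicate 1 (adjusted p = 0.0667 by limma). Slc30a2, of secretory vesicles, fell from 2.27 ± 0.511 to 0.405 ± 0.702 CPM (limma adjusted p = 0.00138), with 1.22 CPM in CDKO replicate 3 against 0 in the other CDKO pools, and it was not called by edgeR (adjusted p = 0.09602) or by DESeq2 (adjusted p = 0.352).

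The iron importer Slc11a2 and the iron exporter Slc40a1 changed in opposite directions, and the copper importer Slc31a1 rose. Slc39a14, which also carries iron, fell as given above, so that carriers of iron into the cytosol did not all rise. Slc11a2, the divalent metal transporter DMT1 that imports ferrous iron, was at 25.8, 25.1 and 29.6 CPM in control pools and 42.1, 42.9 and 45.5 CPM in CDKO pools. Slc11a2 rose 1.62-fold (log2 difference 0.68, SE 0.09, limma adjusted p = 3.61e-05). Slc40a1, ferroportin, which exports iron from cells, was at 26.2, 20.5 and 26.2 CPM in control pools and 12.5, 13.5 and 13.4 CPM in CDKO pools. Slc40a1 fell 1.85-fold (log2 difference -0.83, SE 0.12, limma adjusted p = 8.98e-05). In neither gene did the groups overlap. Slc31a1, the copper importer CTR1, was at 47.2, 51.8 and 50.9 CPM in control pools and 80.2, 67.7 and 68.2 CPM in CDKO pools. For Slc31a1 the log2 difference was 0.52 (SE 0.08, limma adjusted p = 0.000116). Slc41a3, a magnesium transporter, fell from 25.3 ± 1.83 to 15.3 ± 1.05 CPM (limma adjusted p = 0.0001298). Slc48a1 fell from 238 ± 6.45 to 221 ± 5.45 CPM (limma adjusted p = 0.0375), a call lost at limma adjusted p = 0.0655 to 0.122 without control replicate 1, control replicate 3, CDKO replicate 1 and CDKO replicate 3 in turn and with TMM scaling, by edgeR, by DESeq2 and after GC and length correction (adjusted p = 0.0504 to 0.417).

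Of 28 transporters of inorganic ions and of pH, 6 rose (21.4%), 14 fell (50%) and 8 did not pass, against 31.1% and 35.2% of all genes tested, with a median log2 difference of -0.23. Of the 14, 4 had a CDKO mean under 1 CPM and so were among the 214 through their control level. Among the 23 of at least 1 CPM in both groups, 5 rose (21.7%) and 10 fell (43.5%), against 31.2% and 33.5% of genes at that level. The summed level was 973 to 1008.5 CPM in control and 817 to 876 CPM in CDKO pools, lower in all CDKO pools. Slc9b2, a sodium and proton exchanger (mm10 chromosome 3, 135307700 to 135345387), was at 15.3, 15.3 and 13.2 CPM in control pools and 1.095, 3.86 and 1.71 CPM in CDKO pools, a 6.57-fold decrease (log2 difference -2.36, SE 0.25, limma adjusted p = 1.05e-05). CDKO replicate 2 was the highest of its group and still below every control pool, and without it the decrease was 10.4-fold. Slc4a4, the sodium bicarbonate cotransporter, was at 4.01, 1.92 and 2.29 CPM in control pools and 0, 0 and 0 CPM in CDKO pools. With no read in any CDKO pool, Slc4a4 was at least 30.03-fold lower, set against the highest floor of 3 counts in a library (log2 difference -1.86, SE 0.20, limma adjusted p = 1.05e-05). Slc12a5, a potassium chloride cotransporter known from neurons, was at 3.38, 4.44 and 4.46 CPM in control pools and 0.609, 0.747 and 0.772 CPM in CDKO pools. For Slc12a5 the log2 difference was -1.57 (SE 0.15, limma adjusted p = 6.26e-06). Slc4a3, an anion exchanger known from heart and brain, fell from 2.71 ± 1.24 to 0.281 ± 0.446 CPM (limma adjusted p = 0.000405) but was not called by DESeq2 (adjusted p = 0.0657).

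Slc9a5, a sodium proton exchanger known from brain, was the largest increase of the group, at 2.33, 1.48 and 2.22 CPM in control pools and 8.89, 8.99 and 7.25 CPM in CDKO pools and 4.17-fold higher (log2 difference 1.65, SE 0.16, limma adjusted p = 6.65e-06). Slc26a8, an anion transporter known from testis, was at 0.895, 0.905 and 0.543 CPM in control pools and 2.71, 1.71 and 3.93 CPM in CDKO pools. For Slc26a8 the log2 difference was 1.05 (SE 0.21, limma adjusted p = 0.00104), all CDKO pools above all control pools at a low level. Slc12a2, the sodium, potassium and chloride importer NKCC1, was at 52.1, 54.2 and 46.4 CPM in control pools and 82.3, 80.7 and 77.7 CPM in CDKO pools. For Slc12a2 the log2 difference was 0.65 (SE 0.07, limma adjusted p = 9.65e-06). Slc4a2, a widely expressed chloride bicarbonate exchanger, rose from 57.6 ± 0.399 to 77.8 ± 4.73 CPM (limma adjusted p = 9.68e-05). Slc20a1 (control 67.9 ± 2.75, CDKO 67.2 ± 7.42 CPM, log2 difference -0.02, limma adjusted p = 0.839) and Slc20a2 (control 40.6 ± 0.552, CDKO 40.03 ± 2.39 CPM, log2 difference -0.02, limma adjusted p = 0.796), the phosphate importers, and Slc24a5 (control 27.6 ± 1.49, CDKO 30.02 ± 1.65 CPM, log2 difference 0.12, limma adjusted p = 0.256) did not pass. Slc4a7, a sodium bicarbonate cotransporter, passed narrowly as lower (control 57.96 ± 2.45, CDKO 51.05 ± 4.02 CPM, log2 difference -0.18, limma adjusted p = 0.0427). That call was lost at limma adjusted p = 0.0622 to 0.144 without control replicate 1, control replicate 2, control replicate 3, CDKO replicate 2 and CDKO replicate 3 in turn and with no filter, with TMM scaling, with quantile normalization, by edgeR, by DESeq2 and after GC and length correction (adjusted p = 0.0565 to 0.3003).

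Of 27 transporters of nucleosides and nucleotide sugars, 13 rose (48.1%), 8 fell (29.6%) and 6 did not pass (median log2 difference 0.19), against 31.1% and 35.2% of all genes tested. Family 35, which includes the carriers of nucleotide sugars into the Golgi and endoplasmic reticulum for glycosylation, gave 12 of the increases and 7 of the decreases among its 23 genes. The genes were grouped by family number only, and not all members of family 35 are known to carry nucleotide sugars. The group's summed level was 1382 to 1420 CPM in control and 1571 to 1602 CPM in CDKO pools. Of the 8 genes of the group that fell, 1 had a CDKO mean under 1 CPM. Among the group's 26 genes of at least 1 CPM in both groups of pools, 13 rose (50%) and 7 fell (26.9%). The shares of all such genes were 31.2% and 33.5%. Slc35f5 was at 32.01, 34.9 and 33.3 CPM in control pools and 62.3, 61.2 and 54.5 CPM in CDKO pools, the largest increase of the group at 1.78-fold (log2 difference 0.81, SE 0.08, limma adjusted p = 4.25e-06). Slc35b4, which carries UDP-xylose and UDP-N-acetylglucosamine, was at 78.1, 90.8 and 84.6 CPM in control pools and 128, 122 and 123 CPM in CDKO pools. For Slc35b4 the log2 difference was 0.55 (SE 0.06, limma adjusted p = 1.19e-05). Both genes were higher in every CDKO pool. Slc35a4 rose from 148 ± 3.65 to 192 ± 8.64 CPM (limma adjusted p = 3.96e-05). Slc35f6 rose from 14.9 ± 2.03 to 21.5 ± 0.635 CPM (limma adjusted p = 0.00235). Slc35c1, which carries GDP-fucose into the Golgi, rose from 122 ± 1.78 to 144 ± 9.83 CPM (limma adjusted p = 0.00275). Slc35b1, which brings ATP into the endoplasmic reticulum, rose from 41.1 ± 0.373 to 55.3 ± 3.03 CPM (limma adjusted p = 0.000211). Slc35a1, the CMP-sialic acid carrier, rose from 43.6 ± 5.81 to 54.5 ± 4.75 CPM (limma adjusted p = 0.0135), a call lost without control replicate 1 (adjusted p = 0.0559 by limma) and without CDKO replicate 3 (adjusted p = 0.0575 by limma).

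Decreases in family 35 included Slc35e2, at 47.3, 47.5 and 40.9 CPM in control pools and 27.7, 25.97 and 26.96 CPM in CDKO pools. For Slc35e2 the log2 difference was -0.73 (SE 0.08, limma adjusted p = 1.81e-05). Slc35e3 was at 38.9, 35.5 and 36.2 CPM in control pools and 24.6, 20.1 and 22.5 CPM in CDKO pools. For Slc35e3 the log2 difference was -0.70 (SE 0.09, limma adjusted p = 5.98e-05). Slc35d2, a carrier of UDP-N-acetylglucosamine, fell from 23.8 ± 2.93 to 13.4 ± 1.36 CPM (limma adjusted p = 0.000166). These 3 genes were lower in all CDKO pools. Slc35g2 was at 2.25, 3.15 and 2.79 CPM in control pools and 0, 0.772 and 0.0468 CPM in CDKO pools, with 1 CDKO pool, replicate 2, above 0.1 CPM. It passed as lower (log2 difference -1.59, SE 0.22, limma adjusted p = 6.77e-05) but was not called by DESeq2 (adjusted p = 0.0524). The equilibrative nucleoside transporters did not move together. Slc29a2, ENT2, rose from 17.98 ± 0.633 to 27.9 ± 0.766 CPM (limma adjusted p = 0.000118), while Slc29a1, ENT1, the main adenosine transporter (control 109.6 ± 3.19, CDKO 101 ± 8.03 CPM, log2 difference -0.12, limma adjusted p = 0.09499), and Slc29a3, the lysosomal ENT3 (control 51.4 ± 2.87, CDKO 52.9 ± 5.905 CPM, log2 difference 0.03, limma adjusted p = 0.741), did not pass. Slc29a1 passed as lower without CDKO replicate 2 (adjusted p = 0.0165 by limma).

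Of 13 transporters of sugars and sugar phosphates, 4 rose and 4 fell (30.8% each) and 5 did not pass (median log2 difference -0.05), against 31.1% and 35.2% of all genes tested. Of the 4 that fell, 2 had a CDKO mean under 1 CPM. Among the 11 of at least 1 CPM in both groups, 4 rose (36.4%) and 2 fell (18.2%), against 31.2% and 33.5% of such genes. Slc2a4, the insulin-regulated glucose transporter GLUT4 of muscle and fat, was at 3.22, 2.47 and 5.41 CPM in control pools and 0, 0 and 0 CPM in CDKO pools. With 0 reads in the CDKO pools it was at least 40.5-fold lower against the same floor (log2 difference -2.18, SE 0.21, limma adjusted p = 5.13e-06). Slc37a2, a sugar phosphate exchanger known from macrophages, was at 3.17, 3.57 and 1.82 CPM in control pools and 0, 0.145 and 0.0935 CPM in CDKO pools. For Slc37a2 the log2 difference was -1.81 (SE 0.19, limma adjusted p = 1.03e-05), while macrophage markers rose in 4 of 6. Slc37a4, which brings glucose 6-phosphate into the endoplasmic reticulum, was at 45.6, 46.4 and 47.1 CPM in control pools and 24.01, 28.2 and 30.5 CPM in CDKO pools. For Slc37a4 the log2 difference was -0.74 (SE 0.09, limma adjusted p = 3.26e-05). Its relative Slc37a1 rose from 73.4 ± 1.38 to 101 ± 4.85 CPM (limma adjusted p = 2.51e-05). Slc2a9, the urate transporter, was at 11.5, 13.7 and 9.11 CPM in control pools and 22.2, 20.9 and 22.3 CPM in CDKO pools. For Slc2a9 the log2 difference was 0.89 (SE 0.14, limma adjusted p = 0.000158). Slc2a10, GLUT10, rose from 14.4 ± 1.81 to 23.1 ± 1.22 CPM (limma adjusted p = 0.000406). The groups did not overlap in any of these.

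Slc50a1, the most abundant of the sugar group, did not pass (control 172 ± 6.797, CDKO 166 ± 3.29 CPM, log2 difference -0.05, limma adjusted p = 0.3905), and neither did Slc2a8, an intracellular glucose transporter (control 25.6 ± 2.63, CDKO 24.5 ± 0.491 CPM, log2 difference -0.06, limma adjusted p = 0.616), or Slc5a6, the multivitamin transporter (control 19.2 ± 0.715, CDKO 19.3 ± 0.149 CPM, log2 difference 0.01, limma adjusted p = 0.943). Slc45a4 fell from 106 ± 8.67 to 85.4 ± 5.27 CPM (limma adjusted p = 0.00188), but not after GC and length correction (adjusted p = 0.135 by limma). Slc5a3, the myo-inositol transporter of osmotic stress, rose from 37.8 ± 3.203 to 49.2 ± 9.42 CPM (limma adjusted p = 0.0242) with overlapping pools. Its call was lost at limma adjusted p = 0.0526 to 0.109 without control replicate 2, control replicate 3, CDKO replicate 1 and CDKO replicate 3 in turn and with no filter (adjusted p = 0.0723 by limma). Without CDKO replicate 3 the log2 difference of Slc5a3 was 0.23 instead of 0.35.

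**Figure D3:**
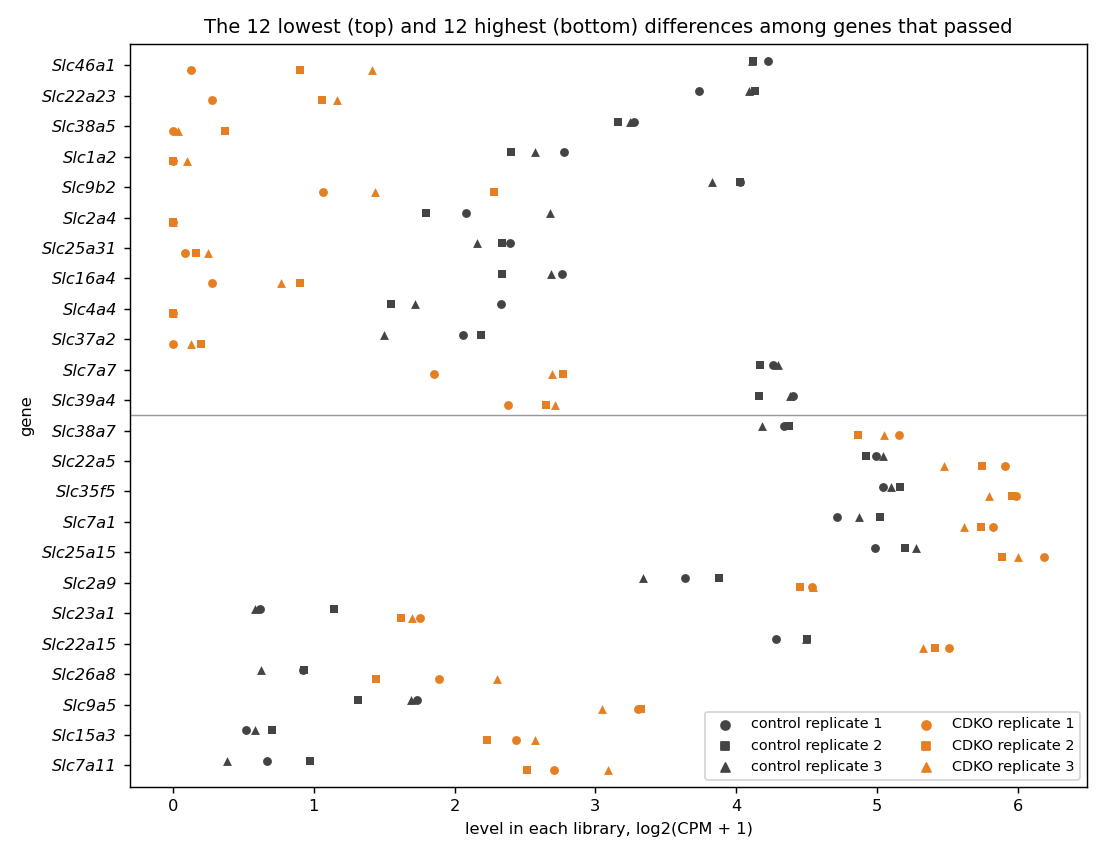
Level of the 12 genes with the lowest and the 12 with the highest log2 differences among solute carriers that passed, as log2(CPM + 1) in each library; colour gives the group and the marker shape the replicate number, which does not pair libraries. The pools of the groups do not overlap in any row, and most of the genes that fell have CDKO pools near 0.

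Transporters of monocarboxylates and organic ions had 7 of 21 genes higher (33.3%), 10 lower (47.6%) and 4 that did not pass (median log2 difference -0.24), against 31.1% and 35.2% of all genes tested. Of the 10, 3 had a CDKO mean under 1 CPM, and of the 7, 1 had a control mean under 1 CPM. Among the 17 of at least 1 CPM in both groups, 6 rose (35.3%) and 7 fell (41.2%), against 31.2% and 33.5% of such genes. Slc22a23, an organic ion transporter relative (mm10 chromosome 13, 34179158 to 34345182), was at 12.3, 16.5 and 16.01 CPM in control pools and 0.213, 1.08 and 1.24 CPM in CDKO pools, a 17.7-fold decrease (log2 difference -3.15, SE 0.23, limma adjusted p = 7.64e-07). Slc16a4, a member of the monocarboxylate family, was at 5.78, 4.06 and 5.43 CPM in control pools and 0.213, 0.868 and 0.701 CPM in CDKO pools. For Slc16a4 the log2 difference was -1.95 (SE 0.19, limma adjusted p = 6.79e-06). Slc16a10, which carries aromatic amino acids and thyroid hormone, was at 14.4, 13.4 and 12.2 CPM in control pools and 3.56, 4.29 and 3.60 CPM in CDKO pools. For Slc16a10 the log2 difference was -1.57 (SE 0.14, limma adjusted p = 2.58e-06). The bile acid transporter of the liver, Slc10a1, was at 2.68, 1.399 and 1.51 CPM in control pools and 0, 0.434 and 0.281 CPM in CDKO pools. For Slc10a1 the log2 difference was -1.20 (SE 0.20, limma adjusted p = 0.000318). In these 4 genes every CDKO pool was below every control pool. Slc16a6 fell from 17.8 ± 2.33 to 9.68 ± 1.29 CPM (limma adjusted p = 0.000338). Its exons share 1052 bases with Amz2 on the opposite strand.

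Slc22a15, a transporter of zwitterions such as carnosine, was at 18.4, 21.7 and 21.6 CPM in control pools and 44.7, 41.6 and 39.2 CPM in CDKO pools, 2.03-fold higher with no overlap (log2 difference 0.99, SE 0.09, limma adjusted p = 4.87e-06). Slc22a5, which imports carnitine for fatty acid oxidation, was at 30.8, 29.3 and 31.9 CPM in control pools and 59.2, 52.6 and 43.6 CPM in CDKO pools. For Slc22a5 the log2 difference was 0.73 (SE 0.10, limma adjusted p = 8.03e-05). Slc10a7 rose from 30.2 ± 1.04 to 48.2 ± 6.45 CPM (limma adjusted p = 0.000132). Slc16a5, at a low level, rose from 0.649 ± 0.264 to 1.51 ± 0.0593 CPM (limma adjusted p = 0.00544). Slc22a3, the organic cation transporter OCT3 and the most abundant gene of the group, did not pass (control 173 ± 13.8, CDKO 188 ± 12.4 CPM, log2 difference 0.12, limma adjusted p = 0.119). It passed as higher without control replicate 1 (adjusted p = 0.0309 by limma). Slc10a3 did not pass (control 36.2 ± 2.798, CDKO 34.2 ± 1.73 CPM, log2 difference -0.08, limma adjusted p = 0.418).

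Among 8 vitamin transporters 4 rose (50%), 2 fell (25%) and 2 did not pass (median log2 difference 0.13), against 31.1% and 35.2% of all genes tested. Of the 2 that fell, 1 had a CDKO mean under 1 CPM, and of the 4 that rose, 1 had a control mean under 1 CPM. Among the 6 of at least 1 CPM in both groups, 3 rose (50%) and 1 fell (16.7%), against 31.2% and 33.5% of such genes. Slc46a1, the proton-coupled folate transporter (mm10 chromosome 11, 78465697 to 78472059), was at 17.7, 16.3 and 16.3 CPM in control pools and 0.0913, 0.868 and 1.66 CPM in CDKO pools. Slc46a1 fell 19.2-fold (log2 difference -3.34, SE 0.26, limma adjusted p = 1.25e-06), the largest decrease among the 214 genes on the log2 scale, with every CDKO pool below every control pool. Without CDKO replicate 3, the highest of its group, Slc46a1 was 35-fold lower. Slc19a1, the other main folate importer, was at 126, 123 and 118 CPM in control pools and 112, 125 and 111 CPM in CDKO pools without passing (limma adjusted p = 0.258). Slc19a2, a thiamine importer, rose from 18.2 ± 0.644 to 25.9 ± 2.75 CPM (limma adjusted p = 0.00158). The ascorbate transporters both rose, Slc23a2 from 80.9 ± 3.51 to 103 ± 4.23 CPM (limma adjusted p = 0.000228) and Slc23a1, at a low level, from 0.746 ± 0.399 to 2.23 ± 0.1505 CPM (limma adjusted p = 0.000845). The riboflavin transporters moved apart: Slc52a2 fell from 35.8 ± 1.98 to 28.1 ± 2.18 CPM (limma adjusted p = 0.00481), whereas Slc52a3 rose from 3.47 ± 0.207 to 5.64 ± 1.08 CPM (limma adjusted p = 0.00856). Slc46a3, of the lysosome, did not pass (control 14.1 ± 1.87, CDKO 12.5 ± 0.918 CPM, log2 difference -0.15, limma adjusted p = 0.312).

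In the group of lipid, choline and acyl transporters 1 of 7 rose (14.3%), 3 fell (42.9%) and 3 did not pass (median log2 difference -0.05), against 31.1% and 35.2% of all genes tested, but 2 rose and 1 fell after GC and length correction. At 1 CPM or more in both groups, 1 of 6 rose (16.7%) and 2 fell (33.3%), against 31.2% and 33.5% of such genes. Slc33a1, which carries acetyl-CoA into the endoplasmic reticulum, rose from 22.5 ± 1.55 to 31.8 ± 2.75 CPM (limma adjusted p = 0.000967). Slc27a2, a fatty acid transport protein with acyl-CoA synthetase activity, was at 2.07, 2.69 and 2.64 CPM in control pools and 0, 0.0723 and 1.05 CPM in CDKO pools. For Slc27a2 the log2 difference was -1.41 (SE 0.25, limma adjusted p = 0.000383). CDKO replicate 3 was the highest CDKO pool of Slc27a2, below every control pool, and the gene was not called by DESeq2 (adjusted p = 0.124). Slc27a4 fell from 50.05 ± 3.01 to 42.5 ± 4.04 CPM (limma adjusted p = 0.0269), a call lost at limma adjusted p = 0.0542 to 0.1104 without control replicate 2, control replicate 3, CDKO replicate 1 and CDKO replicate 2 in turn and after GC and length correction (adjusted p = 0.157 by limma). Slc44a2, a choline transporter-like protein, passed narrowly as lower (control 301 ± 23.8, CDKO 273 ± 9.80 CPM, log2 difference -0.14, limma adjusted p = 0.0463). That call was lost without control replicate 2 (adjusted p = 0.2101 by limma), without CDKO replicate 1 (adjusted p = 0.123 by limma), without CDKO replicate 3 (adjusted p = 0.104 by limma) and with no filter, with TMM scaling, by edgeR and after GC and length correction (adjusted p = 0.0704 to 0.967). Without control replicate 2 the log2 difference of Slc44a2 was -0.07 instead of -0.14. Slc44a1 (control 27.5 ± 1.58, CDKO 26.98 ± 1.59 CPM, log2 difference -0.03, limma adjusted p = 0.799) and Slc27a1 (control 36.5 ± 6.89, CDKO 34.9 ± 3.14 CPM, log2 difference -0.05, limma adjusted p = 0.745) did not pass, nor did Slc27a6 (control 28.5 ± 5.04, CDKO 34.03 ± 0.911 CPM, log2 difference 0.26, limma adjusted p = 0.0663), which passed as higher without control replicate 3 (adjusted p = 0.0287 by limma), with quantile normalization (adjusted p = 0.0263 by limma) and after GC and length correction (adjusted p = 0.0351 by limma).

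The NBRE, the element that Nr4a receptors are known to bind as monomers, was searched by its letters AAAGGTCA on both strands of the same 250-base RefSeq windows. Over the 162 solute carrier genes with a window, 2 held a match (1.23%), against 1.55% of 27025 genes. They were Slc27a2, which fell, and Slc5a11, which did not pass. The start of Slc27a2 in RefSeq lies 617 bases inside the gene of GENCODE M21, so that its window is not upstream of the gene by that annotation. A missing match says only that the letters are not in this window.

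Peptide, vesicular and other transporters counted 3 of 11 higher (27.3%), 5 lower (45.5%) and 3 that did not pass (median log2 difference -0.08), against 31.1% and 35.2% of all genes tested. Of the 5 that fell, 2 had a CDKO mean under 1 CPM, and of the 3 that rose, 1 had a control mean under 1 CPM. Among the 8 of at least 1 CPM in both groups, 2 rose (25%) and 3 fell (37.5%), against 31.2% and 33.5% of such genes. Slc15a3, which exports histidine and small peptides from lysosomes, was at 0.435, 0.631 and 0.496 CPM in control pools and 4.41, 3.69 and 4.93 CPM in CDKO pools. Slc15a3 rose 8.35-fold (log2 difference 1.81, SE 0.15, limma adjusted p = 2.40e-06), with control pools under 1 CPM. Its exons share 1529 bases with Tmem132a on the opposite strand, and the labels do not state whether counting used strand. Tmem132a was at 5.37, 4.44 and 4.96 CPM in control pools and 9.68, 11.2 and 8.77 CPM in CDKO pools. For Tmem132a the log2 difference was 0.88 (SE 0.14, limma adjusted p = 0.000229), also higher. Slc15a4, the other lysosomal histidine and peptide transporter, did not pass (control 26.5 ± 4.09, CDKO 24.9 ± 2.71 CPM, log2 difference -0.08, limma adjusted p = 0.558). Slc14a1, the urea transporter of red cells, was at 103, 113 and 95.8 CPM in control pools and 149, 140.0 and 135 CPM in CDKO pools. For Slc14a1 the log2 difference was 0.44 (SE 0.06, limma adjusted p = 0.000104), with no overlap. Slc14a2, the urea transporter of the kidney, was at 2.66, 1.70 and 2.38 CPM in control pools and 0, 0.0964 and 0.0468 CPM in CDKO pools. For Slc14a2 the log2 difference was -1.62 (SE 0.16, limma adjusted p = 6.79e-06).

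Vesicular transporters were lower in 4 of the genes named, and higher in 1. Slc18a2, the monoamine loader, was at 373, 422 and 377 CPM in control pools and 306, 312 and 279 CPM in CDKO pools. For Slc18a2 the log2 difference was -0.38 (SE 0.06, limma adjusted p = 0.000129). Slc17a9, which loads ATP into vesicles, fell from 49.9 ± 3.16 to 28.5 ± 3.67 CPM (limma adjusted p = 2.99e-05). Slc17a8, a vesicular glutamate transporter, fell from 3.65 ± 0.129 to 0.7202 ± 0.393 CPM (limma adjusted p = 2.83e-05). Its relative Slc17a7 rose from 2.73 ± 0.512 to 5.09 ± 0.844 CPM (limma adjusted p = 0.00286). Slc18b1, a vesicular polyamine transporter, fell from 9.44 ± 0.263 to 6.49 ± 1.704 CPM (limma adjusted p = 0.0175), a call lost at limma adjusted p = 0.05099 to 0.0683 without control replicate 2, control replicate 3, CDKO replicate 1 and CDKO replicate 3 in turn and with no filter (adjusted p = 0.05099 by limma). Slc17a5, the lysosomal sialic acid exporter, did not pass (control 31.1 ± 1.29, CDKO 32.02 ± 1.45 CPM, log2 difference 0.04, limma adjusted p = 0.663). Monoamine loading is known from basophils, mast cells and platelets. The 7 markers of basophils, mast cells and eosinophils fell in the same libraries (395 to 445 CPM in control and 13.8 to 17.6 CPM in CDKO pools), and 4 of 5 markers of megakaryocytes, which make platelets, rose (279 to 310 and 391 to 401 CPM). Their part in the decrease of Slc18a2 was not tested.

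Of the 214 genes, 5 carry a solute carrier symbol but do not encode a transporter, and were set apart after the table had been seen. The pseudogene Slc2a4rg-ps fell from 21.6 ± 1.202 to 10.4 ± 0.271 CPM (limma adjusted p = 1.17e-05). Slc4a1ap, a nuclear adaptor protein, rose from 33.2 ± 0.7897 to 41.1 ± 2.86 CPM (limma adjusted p = 0.00566). The scaffold Slc9a3r1 passed narrowly as lower (limma adjusted p = 0.0495), a call lost at limma adjusted p = 0.0543 to 0.168 without control replicate 1, control replicate 2, control replicate 3, CDKO replicate 2 and CDKO replicate 3 in turn and with no filter, with a minimum mean of 50 reads, with TMM scaling, with a pseudocount of 0.5, by edgeR, by DESeq2 and after GC and length correction (adjusted p = 0.0501 to 0.448). The scaffold Slc9a3r2 and Slc7a6os, a neighbour of Slc7a6 on the opposite strand, did not pass (limma adjusted p = 0.382 and 0.265). Without these 5 genes, 70 of 209 rose and 81 fell. In 27 of the 214 genes an exon overlaps a protein-coding gene, on the opposite strand in 24. Long shared stretches were also found in Slc6a9 (1258 bases with Ccdc24), Slc16a6, Slc4a2 (817 bases with Fastk) and Slc24a5 (714 bases with Myef2), and the reads of these pairs may be shared.

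Several pairs of close relatives moved in opposite directions. The pairs set out here were picked after their values were seen, so that they are examples and not a test. Slc7a5 and Slc7a8 are alternative leucine-carrying partners of Slc3a2. Slc7a5 rose and Slc7a8 was at 157, 173 and 158 CPM in control pools and 68.3, 92.7 and 78.6 CPM in CDKO pools. For Slc7a8 the log2 difference was -1.03 (SE 0.09, limma adjusted p = 2.97e-06). Slc7a6 and Slc7a7 both export cationic amino acids in exchange for neutral ones. Slc7a6 was at 48.1, 61.3 and 58.7 CPM in control pools and 80.1, 70.8 and 76.7 CPM in CDKO pools (log2 difference 0.44, SE 0.09, limma adjusted p = 0.00107) and rose, with no overlap, as Slc7a7 fell. Slc25a12 and Slc25a13 are the aspartate and glutamate carriers of the malate-aspartate shuttle. Slc25a12 was at 130.1, 142 and 134 CPM in control pools and 161, 154 and 167 CPM in CDKO pools. For Slc25a12 the log2 difference was 0.25 (SE 0.05, limma adjusted p = 0.00122), all higher in CDKO. Slc25a13 was at 64.5, 59.04 and 56.8 CPM in control pools and 37.4, 38.8 and 39.6 CPM in CDKO pools (log2 difference -0.63, SE 0.07, limma adjusted p = 1.55e-05), all lower.

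The same held for the chloride cotransporters and for the proton exchangers. Slc12a2, which brings chloride in, rose. Among potassium chloride cotransporters, which move chloride out, Slc12a5 and Slc12a7 fell and Slc12a4 did not pass (control 8.87 ± 1.89, CDKO 7.399 ± 1.86 CPM, log2 difference -0.24, limma adjusted p = 0.275). Slc12a7 fell from 71.96 ± 1.58 to 61.4 ± 3.66 CPM (limma adjusted p = 0.00697), but not after GC and length correction (adjusted p = 0.763 by limma). Slc9a5 of the plasma membrane rose. Among exchangers of endosomes and the Golgi, Slc9a8 fell from 132 ± 3.05 to 87.6 ± 8.47 CPM (limma adjusted p = 1.65e-05). Slc9a9 fell from 2.397 ± 0.826 to 1.01 ± 0.492 CPM (limma adjusted p = 0.01001). Slc9a7 did not pass (control 4.68 ± 0.2002, CDKO 3.47 ± 0.728 CPM, log2 difference -0.36, limma adjusted p = 0.0632). Slc9a7 passed as lower without CDKO replicate 2 (adjusted p = 0.0245 by limma) and with a pseudocount of 5 (adjusted p = 0.0394 by limma).

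**Figure D4:**
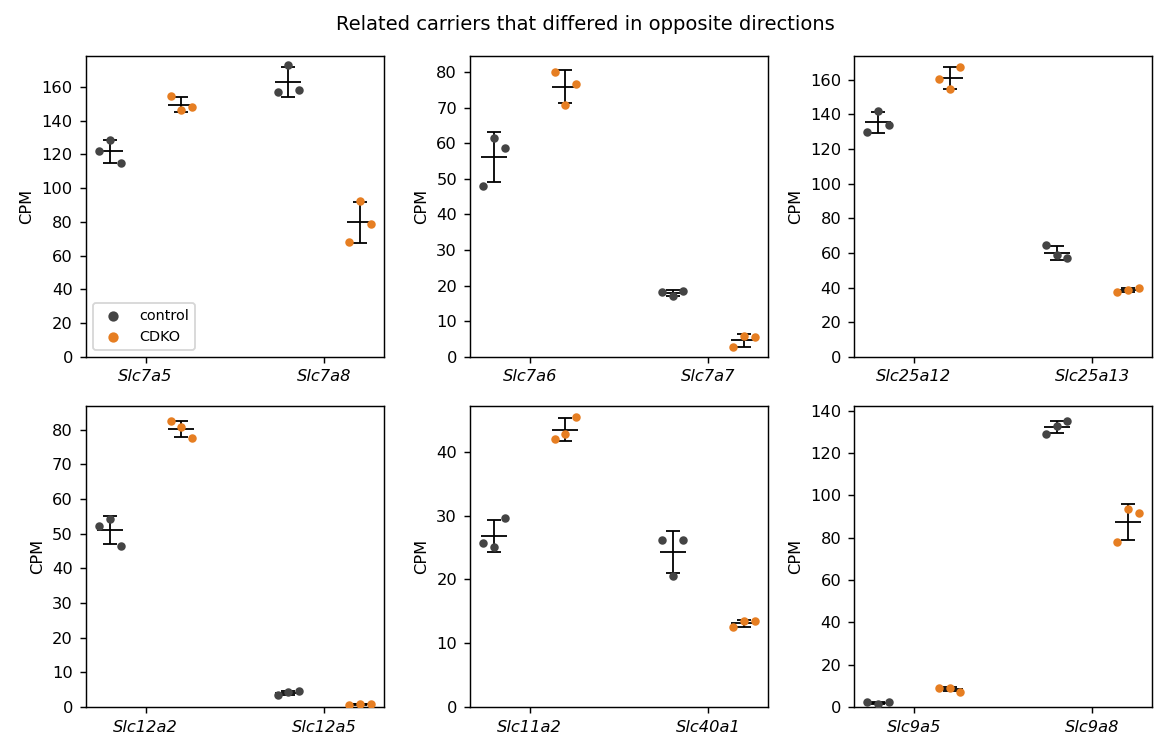
Levels in CPM of 6 pairs of related or opposed solute carriers, Slc7a5 and Slc7a8, Slc7a6 and Slc7a7, Slc25a12 and Slc25a13, Slc12a2 and Slc12a5, Slc11a2 and Slc40a1, Slc9a5 and Slc9a8, with each pool as a point and the mean ± SD (n = 3) as a horizontal line with whiskers. In each panel the left gene is higher and the right gene lower in CDKO pools, with no overlap between groups.

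Transporters with other symbols and genes that act on transporters were counted from lists. Of 42 tested transporters without an Slc symbol, 13 rose (30.95%), 22 fell (52.4%) and 7 did not pass (median log2 difference -0.13), against 31.1% and 35.2% of all genes tested. The most strongly supported decreases were in Rhd, a Rhesus chain of red cells (control 28.5 ± 2.16, CDKO 0.984 ± 0.168 CPM, log2 difference -3.90, limma adjusted p = 1.00e-08), Slco4a1, an organic anion transporter (control 93.8 ± 6.46, CDKO 51.98 ± 4.61 CPM, log2 difference -0.84, limma adjusted p = 3.19e-06), and Mfsd7b (control 40.3 ± 0.299, CDKO 22.1 ± 0.1302 CPM, log2 difference -0.84, limma adjusted p = 3.71e-06). The increases with the smallest p were in Slco3a1, an organic anion transporter (control 88.6 ± 6.06, CDKO 139.8 ± 7.26 CPM, log2 difference 0.65, limma adjusted p = 4.71e-06), Sv2a, a synaptic vesicle protein (control 0.434 ± 0.542, CDKO 6.07 ± 0.529 CPM, log2 difference 2.36, limma adjusted p = 5.77e-06), and Mfsd5 (control 56.1 ± 2.84, CDKO 78.2 ± 1.53 CPM, log2 difference 0.47, limma adjusted p = 3.57e-05). Rhd is also a marker of the erythroid list.

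Of 28 partner chains and regulators, 5 rose (17.9%), 11 fell (39.3%) and 12 did not pass (median log2 difference -0.12), against 31.1% and 35.2% of all genes tested. Wnk1, the kinase that switches chloride cotransporters (control 115 ± 3.96, CDKO 76.4 ± 2.69 CPM, log2 difference -0.59, limma adjusted p = 3.49e-06), Aco1, an iron regulatory protein (control 73.8 ± 0.402, CDKO 47.7 ± 2.68 CPM, log2 difference -0.62, limma adjusted p = 6.91e-06), and Sgk1, a kinase that raises transporters at the surface (control 13.2 ± 0.457, CDKO 4.15 ± 0.917 CPM, log2 difference -1.48, limma adjusted p = 8.97e-06), fell. Bsg, the chain that brings monocarboxylate transporters to the surface (control 315 ± 8.28, CDKO 361 ± 17.4 CPM, log2 difference 0.19, limma adjusted p = 0.00289), and Tfe3 (control 42.9 ± 1.06, CDKO 57.6 ± 1.39 CPM, log2 difference 0.42, limma adjusted p = 0.000129) and Tfeb (control 21.9 ± 1.75, CDKO 28.5 ± 2.86 CPM, log2 difference 0.37, limma adjusted p = 0.00815), regulators of lysosomal genes, rose. Among zinc genes of the list, named after their values were seen, the sensor Mtf1 fell from 33.1 ± 1.15 to 24.3 ± 2.79 CPM (limma adjusted p = 0.00188), as did the metallothioneins Mt1 from 16.2 ± 2.899 to 7.75 ± 1.18 CPM (limma adjusted p = 0.000188) and Mt2 from 4.27 ± 0.771 to 0.6997 ± 0.621 CPM (limma adjusted p = 9.85e-05), which bind zinc.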

How the data were processed

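RNA from sorted mouse HSC was measured in 3 control and 3 CDKO pools. TopHat2, HTSeq, DESeq2 and the build mm10 are named, without versions, per the submitters' processing notes. The annotation and the use of strand in counting are not given in the sources used here. Values per library were deposited as CPM, which the authors made by scaling each library's counts to 1000000. Dividing each value above 0 by that of 1 read gave whole reads for 100.0% (within 0.01 of a read). The authors' baseMean is a signal, the mean of scaled counts, the deposited fold changes are log2 values of control over CDKO, the deposited stat is a score, and the deposited p-values are the authors' DESeq2 results. By the authors' deposited table, adjusted p under 0.05, 72 of the 214 genes were higher and 78 lower, and all 149 genes called both there and here had the same direction.

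Genes with a mean of at least 10 reads (13734 genes, about 0.255 CPM) were fitted on log2(CPM + 1) with limma 3.58.1 under R 4.3.3, CDKO minus control, with eBayes and a mean-variance trend, two-sided, with Benjamini-Hochberg adjustment. Log2 differences are on that scale and understate the change of low genes. Errors are SD over 3 pools or the SE of the coefficient, and folds are left out for group means below 3 counts, except as bounds for groups at 0. Libraries are separate pools per the labels. Of the rows, 7104 had no read and 12 carried a date for a symbol and were left out. Exon lengths, coordinates and overlaps are from GENCODE M21, which held all 214 genes, and upstream windows from RefSeq GRCm38.p6, which held 162. The fit was tested on simulated data.

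The genes and lists were chosen with earlier results of these data known. Groups follow family numbers. Named are, per group, the 4 highest and 4 lowest log2 differences among called genes without overlap, the 2 with the highest CPM per kilobase, the 2 most abundant uncalled genes and a list of 60, of which 58 were present. These make 125 genes, not all of them described, and some genes are not reported here. In the lists of other transporters and of partners, up to 3 genes per direction with the smallest p are named. Genes beyond this, such as the opposed relatives, the motifs searched and Tmem132a, were picked with their values in view. The 16 alternatives were a replicate block, leaving out each library, no filter, a minimum mean of 50 reads, pseudocounts of 0.5 and 5, quantile or TMM scaling, tests of the recovered reads by DESeq2 1.42.0 and edgeR 4.0.16, and a loess correction for GC content and length, which 99.1% of tested genes had. Replicate numbers were not taken to pair libraries: deviations of same-numbered libraries correlated at 0.0518, 0.0483 and -0.0120, and of others at -0.0651 to 0.0264.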

Additional observations from a re-analysis of the deposited data

How the results depend on the processing

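Of the 154 solute carrier genes called, 119 were called in the same direction in every alternative that tested them, and of the 60 uncalled genes 18 were called in at least 1. Not every gene was tested in all 16 alternatives: Slc10a1 and Slc16a5, for example, were tested in 15. Of the 125 genes named by rule, 101 stayed on the same side of the threshold throughout. Of the 29 uncalled ones among the 125, 14 changed sign in at least 1 alternative, and of the 96 called ones 1 did. Leaving out each library in turn, 62 to 69 genes rose and 71 to 81 fell, and the median log2 difference of the solute carriers ran from -0.0609 to -0.0207, the latter without control replicate 2. With replicate number as a block, 74 rose and 86 fell, and over all genes 4348 rose and 4894 fell, against 4265 and 4832 without it, a difference within 1.5 times. Under it, Slc3a2 (limma adjusted p = 0.0302) and Slc6a17 (0.00424) also passed as lower, and Slc22a3 (0.0454), Slc27a6 (0.0361) and Slc39a7 (0.0441) as higher. The count tests gave 71 higher and 75 lower by edgeR and 71 and 73 by DESeq2. After the correction for GC content and length the balance turned, to 79 higher and 73 lower, and over all genes to 5077 and 4128, and with quantile normalization it turned over all genes, to 4690 and 4445, but not among the solute carriers (74 and 79). By group, the correction for GC content and length gave more increases than decreases among metal (8 and 7), lipid (2 and 1) and sugar transporters (4 and 3, equal in the fit reported), and none of the other groups of transporters turned. The median, -0.0460 in the fit reported, was -0.0195 both among genes of at least 1 CPM in each group and among those of at least 5 CPM, 0.000725 with quantile normalization and 0.0344 after the correction for GC content and length, and the cause was not tested. At a minimum of 1.5-fold, 22 genes rose and 55 fell, against 12.1% and 17.2% of genes of at least 1 CPM. The called gene that turned its direction was Slc44a2, to a log2 difference of 0.0027 (limma adjusted p = 0.967) after the correction for GC content and length. Levels near the floor of 0.0701 to 0.0913 CPM limit the folds of the lowest genes.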

Other observations

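Slc6a17, a vesicular amino acid transporter known from neurons and just inside the 1 CPM rule, was at 1.202, 1.04 and 2.48 CPM in control pools and 0.0609, 0.193 and 1.71 CPM in CDKO pools. CDKO replicate 3 stood apart from the other CDKO pools, and the gene did not pass (limma adjusted p = 0.0642). It passed as lower without CDKO replicate 3 (adjusted p = 0.00153 by limma). Slc27a2 was at 1.05 CPM in the same CDKO pool, the highest of its group, as was Slc30a2 at 1.22 CPM. This pool also had the highest summed neutrophil markers of the CDKO pools (78.6 CPM). Other genes, among them Slc38a5, Slc9b2, Slc4a3 and Slc35g2, were highest in CDKO replicate 2, which had the lowest such sum (14.8 CPM). All these genes were picked after their values were seen, and the part of neutrophils in their levels was not tested.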
